A study of Mus musculus with 24 samples.

Results

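RNA from the lungs of Nur77 knockout mice (Nur77-/-) was compared with RNA from wild-type lungs (Nur77+/+) on 4 of the 24 cDNA arrays of a study that covered 6 organs. Each array was hybridised with both RNAs, so it gave 1 ratio per probe, taken here as log2 of mutant over wild type. The mutant RNA carried the dye Cy5 on replicates 1 and 2 and Cy3 on replicates 3 and 4, and the wild-type RNA carried the other dye. A gene was kept where at least 3 of the 4 arrays had a value and both dye orientations were represented, after probes with the same gene symbol had been averaged. This left 12365 of 16148 rows, a row being a gene or a probe without a symbol, and 7932 of the rows kept were genes with a symbol.

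Per the design text, RNA of 7 mutant mice was pooled and set against a pool of 7 wild-type mice, whereas the labelling protocol gives 6 control animals. No treatment is named for either group, and no age, sex or genetic background was found for the mice in the labels. The 4 arrays therefore repeat 1 comparison between a pair of pools. The p-values carry no spread between animals. They rest on the spread among repeat arrays of all 6 organs, fitted in 1 model with 1 common dye term. The direction of the deposited ratios and their log base are likely but not stated: base 2 was taken, on which every fold given here depends, and all signs would turn if the ratios ran the other way.

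Nur77 is the product of Nr4a1, an orphan nuclear receptor without a known natural ligand that is switched on rapidly as an immediate early gene. Nur77 and its relatives Nurr1 (Nr4a2) and Nor1 (Nr4a3) bind as monomers to a short element called NBRE. Nur77 is best known in T cells, where receptor signalling induces it, and in macrophages, where it restrains inflammation, and it is also found in vascular cells and in muscle, where it influences energy metabolism. The lung combines gas-exchanging alveolar epithelium, secretory and ciliated airway cells, a dense endothelium, fibroblasts and smooth muscle, and resident and circulating leukocytes.

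The lung arrays held between 14838 and 16354 values each. Ratios of the 2 arrays with the same orientation correlated at a Spearman rho across rows of 0.086 (mutant in Cy5) and 0.10 (mutant in Cy3). Between arrays of opposite orientation rho lay between -0.072 and -0.024. Rows are not independent replicates, and arrays of 1 orientation also share the dye, so these values are a description. Among the 8416 rows with a value on every lung array, 14.34% had the same sign on all 4 (569 above 0 and 638 below), while 1431 had 1 sign in each orientation and the opposite sign in the other. The ratios hold no absolute levels, so the organ could not be checked from how abundant its markers were. Surfactant protein genes Sftpb and Sftpc and the airway genes Scgb3a1 and Cyp2f2 gave values on all 4 arrays.

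The targeted gene itself, Nr4a1, had log2 ratios of -0.16 and -0.16 with the mutant pool in Cy5 and of -0.93 and -0.29 with the mutant pool in Cy3. All 4 arrays lay below 0, and replicate 3 was the lowest. The estimate was -0.38 ± 0.26 (SE, 4 arrays), which did not pass (limma, unadjusted p = 0.163, adjusted p = 0.933), and it was -0.15 without replicate 3. The same probe stood between -1.73 and -0.24 in the other 5 organs, with a mean of -0.91, and the difference of lung from that mean, 0.52 ± 0.29, did not pass (limma, unadjusted p = 0.0915). The part of the gene that the probe covers is not given, and a probe outside the disrupted part need not show a loss. The relatives followed the dye. Nr4a2 stood at -2.12 and -1.34 with the mutant in Cy5 and at 2.09 with it in Cy3, and Nr4a3 at -2.23 and -0.76 against 3.33. Neither passed (limma, adjusted p = 0.999 and 0.962).

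Differences between mutant and wild-type lung passed the test for few rows. With limma's moderated test on 1 model of all 24 arrays, and Benjamini-Hochberg adjustment over the 12365 rows at a threshold of 0.05, 10 rows passed (0.0809%). Of these, 9 were lower in the mutant pool (0.0728%) and 1 was higher (0.00809%), or 1 lower and 9 higher with the sign turned. At an unadjusted p under 0.05 there were 819 rows (6.62%), 365 higher and 454 lower. The median ratio of all rows was -0.01 and the median standard error 0.52, so that a single gene needed a large difference to pass. The 10 rows were 7 genes with a symbol and 3 probes without one. Without replicate 1 the count was 17, among them all 10, and with the lung arrays fitted alone it was 0 (677 at an unadjusted p under 0.05).

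Genes of fast skeletal muscle fibres made up the main group among them. Fast fibres contract through a specific set of myosins and troponins and refill their energy store through muscle creatine kinase. Tnnc2, the calcium-binding troponin C of fast fibres, had ratios of -1.91, -6.74, -2.43 and -2.73 on replicates 1 to 4. All lay far below 0, and replicate 2 stood apart from the other 3. The estimate was -3.46 ± 0.54 (limma, adjusted p = 0.012), a level 11.0-fold lower, and -2.26 without replicate 2, where it still passed.

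Tnni2, the inhibitory troponin I of fast fibres, stood at -1.66, -2.0, -2.41 and -1.90, so that the arrays of both orientations overlapped closely. Its estimate was -1.99 ± 0.34 (limma, adjusted p = 0.017). Myoz1, the Z-disc protein calsarcin-2 of fast fibres, stood at -1.19, -3.13, -1.87 and -1.66, with an estimate of -1.96 ± 0.29 (limma, adjusted p = 0.00395). Leaving out single arrays ended both calls in part: the adjusted p of Tnni2 was above the threshold when replicate 2, 3 or 4 was left out (up to 0.103), and that of Myoz1 when replicate 2 was (0.0574). The estimates then lay between -2.12 and -1.83 for Tnni2 and between -2.27 and -1.58 for Myoz1. With each array centred on its median neither passed (limma, adjusted p = 0.0591 for each).

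The estimates of 3 further genes of the group were below 0 without passing in this fit, and passed when noisy arrays were given less weight (limma array weights, 29 rows or 0.235%, 9 higher and 20 lower, all 10 above included). Ckm, muscle creatine kinase, had ratios of -2.30, -2.50, -2.07 and -1.36, an estimate of -2.06 ± 0.41 and an adjusted p of 0.0646, against 0.00237 with array weights. Myh1, the heavy chain of type IIx myosin, had the most even values, at -1.48, -1.63, -1.49 and -1.46. Its estimate was -1.51 ± 0.30 (limma, adjusted p = 0.0654, and 0.00159 with array weights). Myl1, the essential light chain of fast myosin, stood at -1.66, 0.17, -1.80 and -2.15, and only replicate 2 was above 0. Its estimate was -1.36 ± 0.35 (limma, adjusted p = 0.227, and 0.0419 with array weights).

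**Figure D1:**
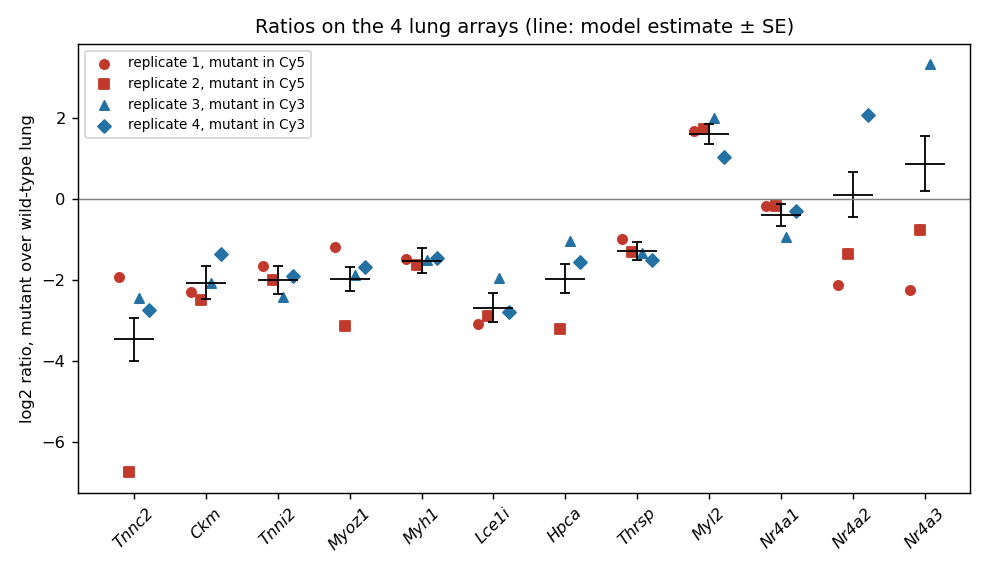
Log2 ratio of mutant over wild-type lung (vertical axis) on each of the 4 arrays for the 7 genes that passed the test, for Ckm and Myh1, and for Nr4a1, Nr4a2 and Nr4a3. Red marks show mutant RNA in Cy5, blue marks mutant RNA in Cy3, and horizontal lines with bars are model estimates ± SE. Tnnc2, Ckm, Tnni2, Myoz1, Myh1, Lce1i and Thrsp lie below 0 on all 4 arrays and Hpca on its 3, Myl2 lies above 0 on all 4, and Nr4a2 and Nr4a3 change sign with the dye.

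Taken separately, probes of Myl1 and Myh1 gave results that differed from those of their averages. Which probe measures its gene better was not tested. Myl1 has 2 probes. The probe measured on all 4 arrays stood at -1.66, -1.61, -1.80 and -1.76, and the other had values on 2 arrays only, 1.94 on replicate 2 and -2.54 on replicate 4. With each probe as a row of its own, the first passed at -1.71 ± 0.23 (limma, adjusted p = 0.00256). Of the 2 probes of Myh1, 1 passed at -1.59 ± 0.24 (limma, adjusted p = 0.0053) and the other stood at -1.43 ± 0.49 (0.425), both below 0 on all 4 arrays.

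The fast muscle list holds 24 genes, of which 21 are on the array and 18 could be tested. Like every list used here, it was chosen with earlier results of these data known. List counts are therefore a description and give no independent support. Over genes, 3 of the 18 fell by the adjusted test, against 0.0728% of all rows, and none rose. With array weights 6 fell, against 0.235% of all rows in either direction. At an unadjusted p under 0.05, 10 were lower and 1 was higher, against 6.62% of all rows. 8 of the 18 lay below 0 on every array with a value, against 9.35% of all rows, and the list median was -1.02, against -0.01 for all rows. By array, the median of the list was -1.41, -0.74, -1.01 and -1.50. The alternatives left the list median between -1.36 and -0.87, while the number that fell ranged from 0 (lung arrays alone) to 6 and was 1 with arrays centred or without replicate 2.

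Over probes, 24 of 29 could be tested and 20 of these were below 0, against 7471 of all 14544 probes tested. 5 fell by the adjusted test, those of Tnnc2, Tnni2 and Myoz1 and the probes of Myl1 and Myh1 just given, against 0.0756% of all probes. Of the 19 probes with 4 values, 12 (63.2%) were below 0 on all 4 arrays, against 7.51% of all such probes. The probes of 1 gene measure the same RNA and are not independent.

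The remaining members did not pass, and those outside the rule for named genes were chosen after their values were seen, to give the list whole. Atp2a1, the calcium pump of the fast-fibre reticulum, was at -1.51 ± 0.49, Tnnt3, fast troponin T, at -1.47 ± 0.43, Myh4, the heavy chain of type IIb myosin, at -1.07 ± 0.58, and Ryr1, the calcium release channel, at -0.97 ± 0.34. Casq1, a calcium store protein, stood at -0.80, and the giant scaffold Neb at -0.71. Mybpc1 was at -0.57 and Tcap at -0.42, both proteins of the sarcomere. Mybpc1 encodes the slow type of its protein although it is on this list, and whether each member is confined to fast fibres was not tested. On the other side were Actn3 at 0.21, the calcium buffer Pvalb at 0.37 and the AMP deaminase Ampd1 at 0.72. Mylpf, the regulatory light chain of fast myosin, had the highest ratio of the list: its single probe stood at 2.41, 0.45 and 3.84 with no value on replicate 2, and the estimate of 2.19 ± 0.51 did not pass (limma, adjusted p = 0.209 as a probe), except without replicate 3 (3.13, adjusted p = 0.0162).

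In bulk RNA, fewer cells of a type and less RNA per cell cannot be told apart, and these fibre genes are markers of a cell type that is not part of the lung's own epithelial, vascular or immune tissue. The part of striated muscle tissue in the 2 pools was not tested. Lists of the other striated muscles are given beside it. Of 8 slow-fibre genes tested, 1 rose and none fell by the adjusted test, with a median of 0.02. Of 8 cardiac genes none passed, the median was -0.26, and 2 were below 0 on every array. Each gene was placed in a single muscle list, so differences between these lists depend on that placement. Myl2, the slow-list gene that rose, also belongs to ventricular myosin and was not counted as cardiac. The 2 cardiac genes below 0 throughout are given next. These were the atrial light chains Myl4, at -0.62, -0.94, -0.59 and -1.04 (estimate -0.80 ± 0.23, limma unadjusted p = 0.00279), and Myl7 at -0.51 ± 0.26. Nppa, the atrial natriuretic peptide, had 3 values of both signs and stood at 1.57 ± 0.84. In mice, heart-type muscle also sheathes the large pulmonary veins.

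The slow-fibre gene that rose was Myl2, the regulatory light chain of slow and ventricular myosin, the 1 row of all that passed as higher. Its ratios were 1.67, 1.73, 2.00 and 1.03, all above 0 and overlapping between orientations. The estimate was 1.61 ± 0.25 (limma, adjusted p = 0.0125), a level 3.05-fold higher, but it did not pass without replicate 3 (1.33, adjusted p = 0.0942) or 4 (1.67, 0.0501), with arrays centred (0.0876) or with no dye term (0.0733). Its neighbours in the list did not pass: the Z-disc gene Myoz2 stood at 1.21 ± 0.62, with both Cy5 arrays below 0 and both Cy3 arrays above, Casq2 at 1.12 ± 0.55 and the slow myosin heavy chain Myh7 at -1.15 ± 0.86.

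The sequences upstream of 3 genes of the fast group and of Myl2 are shown because their ratios lie on opposite sides of 0 in the same RNA. Each is the 250 bases before the annotated gene start in RefSeq (GRCm38.p6), written in the gene's own direction, with every E-box, CANNTG, in capitals, and for Myl2 1 of 2 annotated windows is shown. E-boxes are the elements that MyoD and related muscle factors can bind.
Tnnc2, chr2:164779735-164779984, minus strand: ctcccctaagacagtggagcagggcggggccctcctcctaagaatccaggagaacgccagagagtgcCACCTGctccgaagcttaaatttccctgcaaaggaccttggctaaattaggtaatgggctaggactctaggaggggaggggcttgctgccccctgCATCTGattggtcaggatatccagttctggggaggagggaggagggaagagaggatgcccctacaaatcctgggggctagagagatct
Ckm, chr7:19410844-19411093, plus strand: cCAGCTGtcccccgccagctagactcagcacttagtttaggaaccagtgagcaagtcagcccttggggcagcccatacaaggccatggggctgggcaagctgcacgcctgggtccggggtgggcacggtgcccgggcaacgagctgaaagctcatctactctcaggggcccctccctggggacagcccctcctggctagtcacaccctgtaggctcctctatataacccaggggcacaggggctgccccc
Myh1, chr11:67199852-67200101, plus strand: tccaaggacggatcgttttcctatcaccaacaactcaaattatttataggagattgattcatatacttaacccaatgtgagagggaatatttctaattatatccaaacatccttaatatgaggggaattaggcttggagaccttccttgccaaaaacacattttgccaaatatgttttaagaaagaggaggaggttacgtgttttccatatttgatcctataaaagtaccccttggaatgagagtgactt
Myl2, chr5:122092474-122092723, plus strand: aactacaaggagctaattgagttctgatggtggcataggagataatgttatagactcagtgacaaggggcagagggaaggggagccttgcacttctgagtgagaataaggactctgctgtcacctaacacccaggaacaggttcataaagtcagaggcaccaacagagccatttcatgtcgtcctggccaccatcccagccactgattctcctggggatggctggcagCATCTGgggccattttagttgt

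Tnnc2 held 2 E-boxes in this window, Ckm and Myl2 held 1 each and Myh1 held none. Over all 27025 promoter windows of the same length, 1 per symbol, 31.7% held 2 or more and the median was 1. Among the 6407 windows of genes tested in lung the share was 23.7%. It was 4 of the 11 windows found for fast-fibre genes and 3 of the 5 found for genes that passed. The NBRE, AAAGGTCA on either strand, was in none of the 5 windows found for the 7 genes that passed, nor in any of the 11 windows found for the 18 fast-fibre genes. It was in 354 (1.31%) of all windows and in 53 (0.83%) of the 6407 windows of genes tested in lung. These counts describe the letters of a short window only.

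**Figure D2:**
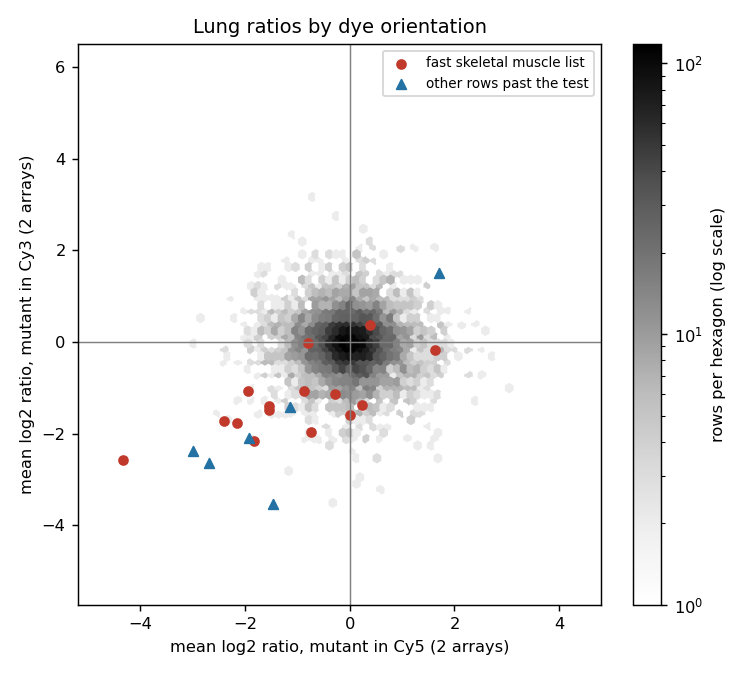
Mean log2 ratio of replicates 1 and 2, mutant in Cy5 (horizontal axis), against the mean of replicates 3 and 4, mutant in Cy3 (vertical axis) for the 8416 rows with 4 values, in grey by the number of rows per hexagon on a log scale. Red points are the 15 fast skeletal muscle genes with 4 values, of which 12 lie below 0 on both axes, as do 24.7% of all rows. Blue triangles are the other rows past the test with 4 values, of which Myl2 lies above 0 on both axes.

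The other genes that fell belong to different tissues. Lce1i encodes a late cornified envelope protein of keratinising squamous epithelium. Its ratios were -3.08, -2.89, -1.96 and -2.78, an estimate of -2.68 ± 0.35 (limma, adjusted p = 0.00211) and a level 6.39-fold lower, and it passed in every alternative except lung arrays alone. The squamous list, too, was chosen with earlier results known. All 6 of its tested genes were below 0, against 6327 of all 12365 rows, with a median of -0.95. Of them, 4 were below 0 on every array with a value, against 9.35% of all rows. Krt5, the keratin of basal cells, stood at -4.74, 0.15, -1.04 and -1.91 and was estimated at -1.88 ± 0.59 (limma, adjusted p = 0.387, unadjusted p = 0.00497). Lce1l, of the same family as Lce1i, was at -1.18 ± 0.39, and Sprr1a, another envelope protein, at -0.72 ± 0.44. Psors1c2, a skin-expressed gene outside the list, was at -1.99 ± 0.45 (limma, adjusted p = 0.135, and 0.024 without replicate 1). The part of squamous tissue in the result was not tested.

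Hpca encodes hippocalcin, a neuronal calcium sensor. It had no value on replicate 1 and stood at -3.21, -1.02 and -1.54 on the others. The estimate was -1.96 ± 0.36 (limma, adjusted p = 0.0458), close to the threshold, and it did not pass without replicate 4 (-2.12, adjusted p = 0.0818). Hpca also did not pass without heart replicate 2, an array of the same model. Of 10 tested genes of neurons and neuroendocrine cells it was the 1 that passed, and the list median was -0.14. Stmn2, a growth-associated tubulin regulator, had an estimate of -0.70 ± 0.39.

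Thrsp, a nuclear regulator of fatty acid synthesis in fat and liver, had ratios of -0.98, -1.30, -1.32 and -1.51, with little spread and an estimate of -1.28 ± 0.22 (limma, adjusted p = 0.0274). Leaving out replicate 2, 3 or 4 ended this call (adjusted p = 0.117, 0.0942 and 0.104), and so did leaving out heart replicate 2. Of 8 tested adipocyte genes, Thrsp alone passed, 6 were below 0, against 6327 of all 12365 rows, and the median was -0.38. The 2 above 0 included 1 that was above 0 on every array with a value, and the highest ratio of the list was 1.90. Retn, a member of the list, stood at 0.11, 2.67 and 2.51 on replicates 2, 3 and 4, with no value on replicate 1. Ucp1, the uncoupling protein of brown fat, lay below 0 on all 4 arrays at -1.17, -0.42, -0.64 and -0.67 (estimate -0.72 ± 0.34, limma unadjusted p = 0.0462). Lipe, hormone-sensitive lipase and outside the list, was above 0 on all 4, at 1.93, 1.45, 5.42 and 0.38, and its estimate of 2.29 ± 0.69 did not pass (limma, adjusted p = 0.335). The part of fat tissue in these values was not tested.

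The list of lipid synthesis and surfactant lipid genes, 19 tested, also holds Thrsp, which alone passed, and its median was -0.09. Elovl1, an elongase of very long chain fatty acids, stood at 0.51 ± 0.22 and was above 0 on all 4 arrays. The lipogenic enzyme Acly (-0.57 ± 0.27) and the elongase Elovl6 (-0.51 ± 0.31) were below 0 on all 4. For Elovl6 this holds for the average of its probes, which disagreed, with means of -0.27, -2.53, 1.52 and -0.26. None of these 3 genes passed (limma, adjusted p between 0.669 and 0.899).

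3 probes without a symbol in the annotation fell too. Probe 6811 stood at -2.36, -3.01, -2.06 and -3.23 (estimate -2.67 ± 0.27, limma adjusted p = 0.000109) and probe 2142 at -2.11, -1.72, -2.34 and -1.83 (estimate -2.0 ± 0.23, adjusted p = 0.000192). These were the lowest adjusted p-values among the rows tested in lung, and both passed in every alternative except lung arrays alone. Their genes cannot be named here.

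The lung ratio was tested against the mean ratio of the other 5 organs for 7553 rows measured in all of them, and 5 rows passed (0.0662%), or 3 without lung replicate 2, lung replicate 4 or heart replicate 2. Ckm was lower in lung by 2.42 on the log2 scale (limma, adjusted p = 0.0465), from a lung ratio of -2.06 and a mean of 0.36 elsewhere. Myoz1 differed by -2.22 (limma, adjusted p = 0.00257), from -1.96 in lung against 0.26. Probe 2142 (-2.22) and probe 6811 (-2.75) differed as well (limma, adjusted p = 9.74e-05 for each). Myh1 just missed at -1.69 (adjusted p = 0.067).

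As a description, the 12 fast-fibre genes measured in all organs had a median lung ratio of -1.16, with 11 of 12 below 0. Their medians were -0.11 in spleen, -0.03 in testis, 0.09 in heart, 0.51 in brown adipose tissue and 0.57 in skeletal muscle. Below 0 were 6 of the 12 in spleen and in testis, 3 in heart and in skeletal muscle, and 1 in brown adipose tissue. One-sided signs were thus not confined to lung. Tnni2 did not pass in this contrast (difference -1.66, limma adjusted p = 0.206), and its spleen ratio was -1.78. Zg16, a zymogen granule lectin, passed in the other direction at 1.60 (limma, adjusted p = 0.0465), with a lung ratio of 0.57 and a spleen ratio of -5.24, while the other 4 organs lay between -0.11 and 0.16. Rexo2, a mitochondrial oligoribonuclease, did not pass in the contrast (1.64, adjusted p = 0.067) or in lung itself (adjusted p = 0.0721, and 0.0263 without replicate 1), and of its 3 probes the 1 with 4 values stood near 0, at a mean of -0.02.

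**Figure D3:**
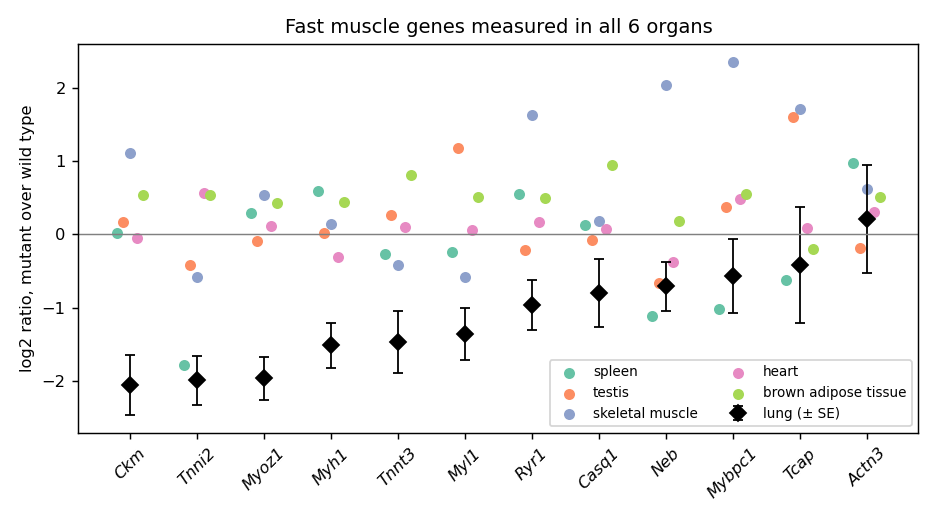
Log2 ratio of mutant over wild type (vertical axis) for the 12 fast skeletal muscle genes measured in all 6 organs. Black diamonds are lung estimates ± SE and coloured points are the estimates of the other 5 organs. Lung lies below every other organ for Tnni2, Tnnt3, Myh1, Myoz1, Myl1, Ckm, Ryr1 and Casq1, and 11 of the 12 lung values are below 0.

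No gene of the lists of alveolar, airway, endothelial, smooth muscle and fibroblast cells passed the adjusted test in limma, and the members at an unadjusted p under 0.05 are named below. Alveolar type 2 cells make surfactant, and the 6 of their 14 markers that were tested lay between 0.00 and 0.40, with a median of 0.18. Sftpb, which encodes the surfactant protein needed for the surface film, stood at 0.38, 0.29, 0.41 and 0.45, an estimate of 0.38 ± 0.41. Etv5, a transcription factor of these cells, stood at 0.47, 0.17, 0.50 and 0.47, an estimate of 0.40 ± 0.41. The 4 arrays lay close together for Sftpb, while Etv5 was lower on replicate 2. Etv5 averages 2 probes, at 0.07, 0.36, 0.04 and 0.43 and at 0.86, -0.01, 0.95 and 0.50. The standard errors of both genes come from all organs. Lpcat1, an enzyme of surfactant lipid, was at 0.32 ± 0.45, and the protease Napsa was at 0.02. Sftpc, named after its value was seen because it defines these cells, was at 0.00. The 4 tested markers of alveolar type 1 cells, the flat cells of gas exchange, had a median of 0.23.

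Airway secretory cells gave the lowest values among these lists, on 3 tested genes only. Cyp2f2, the cytochrome of club cells, stood at -0.53, -4.34, -3.23 and -1.39, all below 0 and far apart. Its estimate of -2.37 ± 0.82 did not pass (limma, unadjusted p = 0.0098). Bpifa1, a secreted airway defence protein, was at -1.65, -1.44, -1.07 and -0.92 (estimate -1.27 ± 0.76), and Scgb3a1, a secretoglobin, was at -0.34 ± 0.75. The 8 tested genes of ciliated cells had a median of 0.01 and none reached an unadjusted p under 0.05.

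Among 13 endothelial genes, with a median of 0.12, Vwf stood at 1.22, 1.23, 0.83 and 1.61 (estimate 1.22 ± 0.51, limma unadjusted p = 0.026). Its probes disagreed: the 1 with 4 values had a mean of 0.10, while the others had means of 1.88 on 3 arrays and 2.48 on 2. Ramp2, the partner of the adrenomedullin receptor, was lower on its 3 arrays, at -1.80, -3.50 and -2.26 (estimate -2.28 ± 0.79, unadjusted p = 0.0149). The medians of 10 smooth muscle and pericyte genes and of 12 fibroblast genes were -0.21 and -0.22. In these lists the pericyte gene Rgs5 (-0.55 ± 0.25) and the matrix proteoglycan Dcn (-0.51 ± 0.24) lay below 0 on all 4 arrays.

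Among the immune lists, B cells had the lowest median. Of 5 tested B and plasma cell genes none passed, 3 reached an unadjusted p under 0.05, all lower, against 6.62% of all rows in either direction, and the median was -0.80. Blnk, an adaptor of the B cell receptor, stood at -0.95, -1.39 and -2.08 (estimate -1.72 ± 0.38, limma unadjusted p = 0.00085). Ms4a1, which encodes CD20, stood at -0.36, -1.30, -3.13 and -1.12 (estimate -1.48 ± 0.40, unadjusted p = 0.00195), and Vpreb3 at -0.80 ± 0.38. Ms4a1 was below 0 on all 4 arrays and Blnk on its 3. Blk, a kinase of B cell receptor signalling, was above 0 on all 4, at 0.49, 1.01, 0.48 and 0.19 (estimate 0.55 ± 0.46).

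The medians were -0.03 for 5 macrophage and monocyte genes, 0.14 for 8 neutrophil genes, -0.08 for 9 T and NK cell genes and 0.20 for 6 genes of antigen presentation. The neutrophil gene S100a8 stood at 0.72 ± 0.34 and was above 0 on 3 of 4 arrays, and Itgb2l at 1.40 ± 0.63 with values of both signs. Red blood cell genes (5, median -0.16), platelet genes (5, -0.15), plasma proteins of the liver (7, -0.37), mesothelial genes (2, -1.08) and the single thymocyte gene (0.24) had no member past the test. The 1 sex chromosome gene tested was at -0.03, so the sex of the pools could not be compared.

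**Figure D4:**
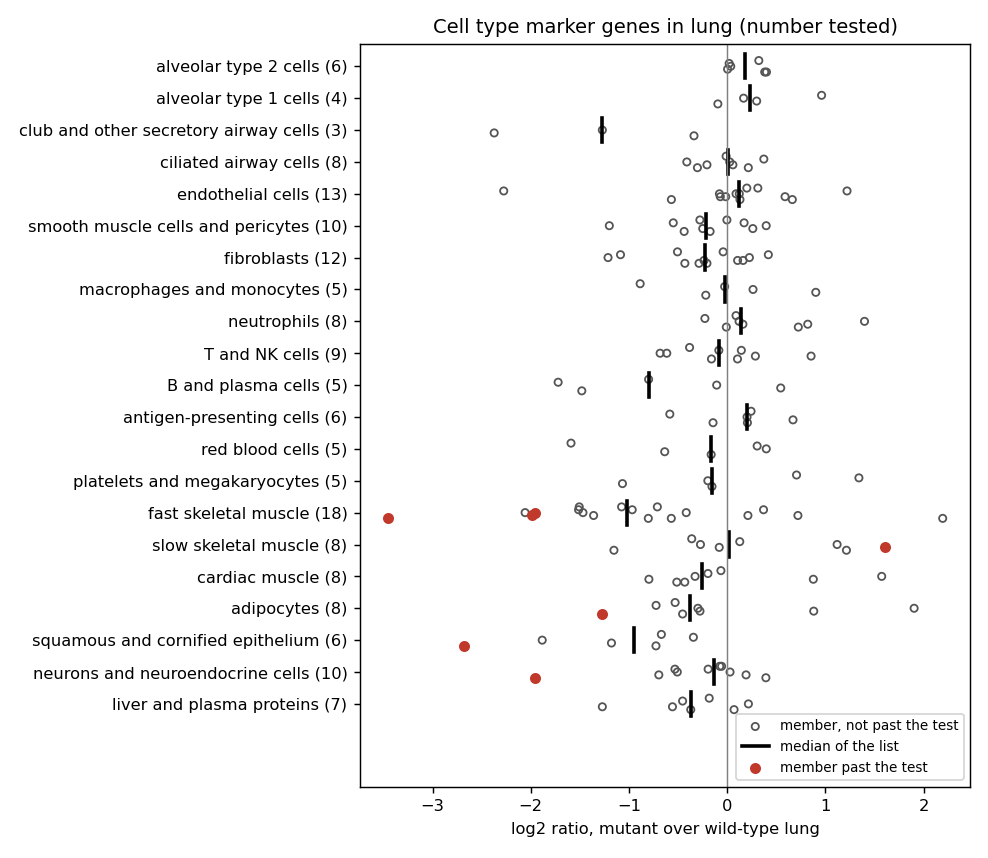
Lung log2 ratio of mutant over wild type (horizontal axis) of each tested member of the cell type lists with at least 3 tested genes (rows, with the number tested). Open circles did not pass the test, red points passed, and black bars are list medians. The fast skeletal muscle list has a median of -1.02 and the squamous list of -0.95, while the alveolar type 2 genes lie between 0.00 and 0.40.

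Pathway lists were examined because Nur77 acts as an immediate early transcription factor and in inflammatory and metabolic control. None had a member past the adjusted test apart from Thrsp. Heat shock genes and chaperones, which fold proteins and are induced by stress, had 10 of 13 members below 0, against 6327 of all 12365 rows. Their median was -0.48, and 8 lay below 0 on every array with a value, against 9.35% of all rows. Dnaja1, a co-chaperone of Hsp70, stood at -0.57, -0.72, -0.86 and -1.04 (estimate -0.80 ± 0.25, limma unadjusted p = 0.00408). Hsph1, a nucleotide exchange factor for Hsp70, stood at -0.98, -0.33, -1.42 and -0.91 (estimate -0.91 ± 0.29, unadjusted p = 0.00509). The mean ratios of these genes in the other 5 organs were -0.51 and -0.74, so both were below 0 there too. Hspd1, the mitochondrial chaperonin, was at -1.46 ± 0.57 on values that ranged from -3.28 to 0.15.

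Of 22 matrix and remodelling genes 15 were above 0, against 6038 of all 12365 rows, with a median of 0.23. Only 1 of the 22 reached an unadjusted p under 0.05 in limma, against 6.62% of all rows. Sparc, a collagen-binding matrix protein, stood at 0.66, 1.64, 0.51 and 1.03 (estimate 0.96 ± 0.34, limma unadjusted p = 0.0115), but its 3 probes had means of 0.07, 0.55 and 2.27. Timp1, an inhibitor of matrix proteases, was at 2.65, 1.77 and 0.58 (estimate 1.49 ± 0.82), and the membrane-bound protease Mmp14 at 1.19 ± 0.67. Mmp3, a secreted protease outside the list, was at -0.66, -4.85, -1.14 and -2.04 (estimate -2.18 ± 0.51, limma adjusted p = 0.191).

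Other nuclear receptors had 14 of 20 genes below 0, against 6327 of all 12365 rows, and a median of -0.34. The thyroid hormone receptor Thrb (-1.48 ± 0.65) and the orphan receptor Nr2c1 (-1.39 ± 0.64) reached an unadjusted p under 0.05, against 6.62% of all rows. The 14 immediate early genes had a median of -0.24 and none at an unadjusted p under 0.05. The medians were 0.08 for 9 genes of NF-kappaB and acute inflammation and 0.05 for 11 interferon and class I genes. In these lists the chemokine Cxcl1 stood at -1.66 ± 0.73, on values from -4.20 to 2.02, and the interferon-induced Bst2 at -1.08 ± 0.49.

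Of 21 genes of xenobiotic metabolism and antioxidants, with a median of -0.22, 3 reached an unadjusted p under 0.05, against 6.62% of all rows, all lower: the flavin monooxygenase Fmo1 (-1.93 ± 0.68) and the glutathione transferases Gsta4 (-1.45 ± 0.56) and Gsta3 (-0.79 ± 0.36). Gsta3 was below 0 on all 4 arrays, whereas Fmo1 and Gsta4 had values of both signs. Clock genes had a median of -0.41 over 10. Of these 3 were above 0, up to 1.52, and 1 of the 3 was above 0 on every array with a value. Per3, a clock repressor, lay below 0 on all 4 arrays at -0.42, -0.47, -0.73 and -0.26. Its estimate was -0.47 ± 0.22 (limma, unadjusted p = 0.0419).

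In the glucocorticoid list (7 genes, median -0.06) the transcription factor Zbtb16 was at -2.17 ± 0.70 and glutamine synthetase, Glul, at 0.73 ± 0.28. In the hypoxia and glycolysis list (14 genes, median 0.00) Pfkfb2, which sets the level of a glycolytic activator, was at 0.83, 3.66 and 4.42 (estimate 2.91 ± 0.83, limma unadjusted p = 0.0032), and Gapdh at -0.83 ± 0.39. The ion and fluid transport list (6 genes, median -0.04) held the anion exchanger Slc26a4 at 0.91 ± 0.31 and the sodium pump subunit Atp1b1 at -0.60 ± 0.23. Slc26a4 was above 0 and Atp1b1 below 0 on all 4 arrays. The cell cycle list (17 genes, median -0.11) held the replication helicase subunit Mcm6 at 2.15 ± 0.74, and the apoptosis list (11 genes) had a median of 0.06.

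Several genes outside these lists passed with array weights but not in the model above. Cgref1, a secreted cell growth regulator, stood at 2.01, 3.42 and 3.67 with no value on replicate 4 (estimate 3.16 ± 0.59, limma adjusted p = 0.056, and 0.0179 with array weights). Top1mt, the mitochondrial topoisomerase, stood at 0.95, 2.74, 4.31 and 2.32 (estimate 2.58 ± 0.52, adjusted p = 0.0894, and 0.0419 with array weights). Pi4k2b, a lipid kinase, was at 1.73 ± 0.40, and Nup210, a nuclear pore protein, at 1.64 ± 0.35. Both were above 0 on every array with a value.

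On the lower side with array weights was Ctrl, a chymotrypsin-like protease of the exocrine pancreas, at -2.63, -2.36, -2.79 and -0.10 (estimate -1.97 ± 0.41, limma adjusted p = 0.0774, and 0.0206 with array weights). Ctrl also passed without replicate 4, the array that stood apart (-2.57, adjusted p = 0.0116). Its ratio was -6.23 in spleen and between -0.08 and 0.14 in the remaining organs. The difference of lung from the mean of the other organs, -0.78, did not pass (limma, unadjusted p = 0.0968). Zdhhc19, of the palmitoyltransferase family, was at -2.28 ± 0.51, Fam98c at -1.66 ± 0.32, the peroxisome assembly gene Pex16 at -1.45 ± 0.44 and the phosphatase subunit Ppp2r3c at -1.34 ± 0.37. Zdhhc19 and Fam98c were below 0 on all 4 arrays, and Pex16 was not. Zdhhc19 also passed without replicate 2 (-3.06, limma adjusted p = 0.0203) and Fam98c without replicate 3 (-1.97, 0.039).

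Of the genes with 1 sign on all 4 arrays that passed in neither fit, Gdnf, a neurotrophic factor, was among the lowest at -4.83, -0.09, -4.31 and -1.29 (estimate -2.63 ± 0.78, limma adjusted p = 0.376). Among the highest, Rasal1, a regulator of Ras, stood at 1.99, 2.74, 2.45 and 2.58 (estimate 2.44 ± 0.64, adjusted p = 0.325) and Wdr5, a chromatin scaffold, at 3.27, 2.49, 1.87 and 1.63 (estimate 2.32 ± 0.65, adjusted p = 0.285). Rasal1 was even across its arrays. Sst, somatostatin, passed only without replicate 1, the array on which it was above 0 (-2.29 ± 0.49 with it, adjusted p = 0.133; -3.36 without it, 0.000913). Gzmm, a granzyme of cytotoxic cells, was at 1.52 ± 0.37 (limma, adjusted p = 0.191).

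Genes next to Nr4a1 on chromosome 15 can stay with a targeted allele through breeding. Of the 40 tested genes nearest to it, 20 on each side in the RefSeq order, none passed and 6 reached an unadjusted p under 0.05, against 6.62% of all rows. Nfe2 (0.94 ± 0.33), Gpd1 (0.94 ± 0.35) and Krt18 (1.77 ± 0.78) were higher, and Slc11a2 (-0.80 ± 0.31), Krt5 and Itgb7 (-1.49 ± 0.59) lower. Gpd1 stood at -0.31 and 0.11 with the mutant in Cy5 and at 1.58 and 2.39 with it in Cy3. Its 2 probes disagreed, with means of -0.29 and 2.87. The median of the 40 was -0.07.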

How the data were processed

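The authors deposited a table of ratios by probe, taken as log2 because the base is not stated. Which background correction, normalization and centring produced them is not given in the sources used here, nor is the direction. Values above 12 in size, a separate mode of 105 to 248 values per lung array, were treated as missing. Of 20205 probes, 13891 had 1 symbol in the platform annotation, 5 had several and 6309 had none. Probes of 1 symbol were averaged, probes without one stayed rows, and arrays were not centred. 1 model over 24 arrays (limma 3.58.1, R 4.3.3) held 6 organ coefficients and 1 dye term. Heart replicate 2, whose wild-type channel is labelled skeletal muscle, stayed in the fit. Without it 8 rows passed in lung, and Hpca and Thrsp no longer did.

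The fit was tested on simulated data, in which false calls were a larger share of all calls than the threshold allows when the organs differed in spread as they do here.

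The lung comparison, its 39 gene lists and the rules were chosen with earlier results of these data known. Named were Nr4a1 to Nr4a3, genes that passed with or without array weights, the 10 largest ratios of 1 sign and the 10 smallest p-values in each direction, up to 4 members per list beside those that passed, genes differing from other organs, and neighbours of Nr4a1. Names outside this rule are Sftpc and Atp2a1, Tnnt3, Ryr1, Myh4 and other fast-fibre genes that complete their list. Among the alternatives, the fit on tested rows only was chosen after seeing the data. The replicate numbers did not pair arrays across organs (correlations of -0.024 to 0.095 over 20 pairs).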

Additional observations from a re-analysis of the deposited data

Results flagged for a closer look

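On 4 of the 80 named genes with 4 lung values, 1 array lay far from the other 3. Chance puts about 1 in 20 groups in this class. Tnnc2 was at -6.74 on replicate 2, against -2.73 to -1.91 on the others. Ctrl was at -0.10 on replicate 4, against -2.79 to -2.36. Etv5 was at 0.17 on replicate 2, where its other values lay between 0.47 and 0.50. Itgb7 was at -3.58 on replicate 4, against -0.97 to -0.51.

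The lung ratio differed from the mean of the other 5 organs for 5 rows (limma contrast, adjusted p under the threshold): Ckm by -2.42, Myoz1 by -2.22, Zg16 by 1.60, probe 2142 by -2.22 and probe 6811 by -2.75.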

How the results depend on the processing

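The number of rows that passed in lung, 10, was 5 with arrays centred, 24 with a dye term for each organ, 0 with lung arrays alone and 29 with array weights, and 8 to 17 without 1 lung replicate (17 without replicate 1). The replicate number as a block, which pairs nothing here, gave 8. It ended the calls of Hpca and Thrsp. Leaving out heart replicate 2 also gave 8 and ended the same 2 calls. The 5 rows that differed between lung and the other organs became 3 with arrays centred, with robust eBayes, with the replicate block and without heart replicate 2. They became 9 with a dye term for each organ or with array weights and 8 with every probe as a row, and were 3 to 7 without 1 lung replicate (3 without replicate 2 or 4). Nr4a1 stayed between -0.51 and -0.15 and never passed. Lce1i, Tnnc2 and the 3 probes without a symbol passed in 15 of 16 alternatives, failing with lung arrays alone, Myoz1 in 13, Myl2 and Tnni2 in 11, Thrsp in 8, and Hpca in 8 of 14.

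The causes of these changes were not tested. Signs turned for genes that had not passed. Nr4a2 was at -0.46 with no dye term, -0.07 with array weights, -0.01 with the replicate block and -0.02 to 0.37 without 1 replicate. Actn3 was at -0.31 both with a dye term for each organ and with lung arrays alone. With the separate mode kept, Wdr5 was at -0.02 and Hspd1 at 1.08. Sftpc was at -0.00 with array weights. Without 1 replicate, Actn3 ranged from -1.16 to 0.54, Sftpc from -0.10 to 0.10, Lpcat1 from -0.14 to 0.64, Napsa from -0.16 to 0.10, Pvalb from -0.06 to 0.82 and Myh7 from -2.18 to 0.31. The number of arrays limits precision.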
